A study of Mus musculus with 17 samples.

Results

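Genes of mitosis and DNA replication were examined in mouse kidney, as a set of 45 genes given by symbol: 11 that license and build new DNA or supply its nucleotides, 11 cyclins, mitotic kinases, checkpoint and proteolysis genes, 13 genes of the spindle, its kinesin motors and the centromere, 4 of cytokinesis, and 6 that shape chromosomes or the nucleus. All 45 symbols were found among the 55487 gene identifiers of the deposited count table. Of these, 20 had enough counts to be tested and 25 did not. Counts came from 3′ end sequencing of polyadenylated RNA (QuantSeq), which samples only the tail of a messenger RNA, so that levels of different genes need no correction for length.

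The db/db group held 9 male mice, which carry 2 copies of the Leprdb mutation of the leptin receptor, lack its long signalling form, and become obese and diabetic. The db/m group held 8 male mice, which carry 1 Leprdb copy, are lean, and served as controls. Both came from the strain BKS.Cg-Dock7m +/+ Leprdb/J at an age of 16 weeks, with 1 library per animal. By the strain notation the db/m mice also carry 1 copy of the Dock7m coat colour allele and the db/db mice carry none, so Leprdb and Dock7m cannot be told apart here. Groups were taken from the titles, which match the library names and the sizes given for each group. The genotype field gives the opposite for all 17 samples, and if it were right every direction below would turn round. Library numbers run through the db/m animals before the db/db animals, so library order and group cannot be told apart.

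Libraries held 3256427 to 7627747 gene counts. Levels are given as CPM, counts scaled to library size by TMM, and 3 counts, the limit that a count of 0 allows, stood for 0.380 to 0.929 CPM. All 12 proximal tubule markers, all 7 thick ascending limb markers, all 11 collecting duct markers and all 7 podocyte markers passed the count filter. The db/db replicate 8 library stood apart on the first principal component of all tested genes.

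A cell that divides first loads the ring-shaped MCM helicase onto its origins, copies its DNA in S phase with nucleotides made to order, and then separates the copies in mitosis on a spindle before cytokinesis cuts the cell apart. Most tubule cells of an adult kidney rest outside this cycle and re-enter it after injury, so the transcripts are known to be scarce in the whole organ. Genes of S phase are typically driven through E2F sites in their promoters, and genes of mitosis through a short element called the CHR, often near CCAAT boxes, which the DREAM and MuvB complexes bind.

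The promoters of the members carried these elements often. RefSeq promoters of the build GRCm38.p6, running from 250 bases before to 50 bases after the transcription start, were found for 37 of the 45 members. They were searched on both strands for the CHR (TTTGAA or TTCGAA), for CCAAT, and for the E2F core TTCCCGC, its variant TTGGCGC, the variant TTCGCGC and the variant TTGCCGC. The CHR form TTCGAA reads the same on both strands, and the E2F variant TTGGCGC can share bases with a CCAAT box. A CHR was present in 23 of the 27 mitosis members with a promoter (85.2%), against 21.7% of all 27025 genes with one, and in 2 of 10 replication members. An E2F core was present in 6 of the 10 replication members (60%), against 10.9% of all genes, and in 4 of the 27 mitosis members (14.8%). CCAAT was present in 31 of the 37 (83.8%), against 41.1% of all genes. Such matches describe letters in a window and are not shown to be bound sites.

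The promoters of 6 members are shown, the 5 called genes and Mki67, which carry the main differences described below. Capitals mark the motif matches. Kif23 (chr9:61946750-61947049, minus strand) has a CCAAT box on its reverse strand just before the start and a CHR just after it. Top2a (chr11:99024140-99024439, minus strand) and Mki67 (chr7:135716330-135716629, minus strand) hold several of each, and Mki67 also an E2F core. Mcm5 (chr8:75109259-75109558, plus strand) holds 3 E2F cores, a pair of which overlap, and 3 CCAAT boxes and no CHR, and Kif20b (chr19:34922108-34922407, plus strand) a CHR repeated head to tail and neither of the others. Birc5 (chr11:117848987-117849286, plus strand) holds none of the motifs searched and has no capitals.
Kif23: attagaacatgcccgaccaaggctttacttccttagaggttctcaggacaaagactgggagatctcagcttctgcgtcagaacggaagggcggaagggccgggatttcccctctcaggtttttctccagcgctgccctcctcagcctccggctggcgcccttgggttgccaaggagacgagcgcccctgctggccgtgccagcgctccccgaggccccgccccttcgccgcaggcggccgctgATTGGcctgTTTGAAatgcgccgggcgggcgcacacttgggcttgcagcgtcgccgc
Top2a: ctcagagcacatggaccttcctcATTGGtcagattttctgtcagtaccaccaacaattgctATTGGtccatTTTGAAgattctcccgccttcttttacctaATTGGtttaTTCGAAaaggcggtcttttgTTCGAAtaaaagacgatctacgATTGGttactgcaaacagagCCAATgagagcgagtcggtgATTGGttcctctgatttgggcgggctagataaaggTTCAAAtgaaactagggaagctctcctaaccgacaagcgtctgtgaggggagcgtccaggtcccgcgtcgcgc
Birc5: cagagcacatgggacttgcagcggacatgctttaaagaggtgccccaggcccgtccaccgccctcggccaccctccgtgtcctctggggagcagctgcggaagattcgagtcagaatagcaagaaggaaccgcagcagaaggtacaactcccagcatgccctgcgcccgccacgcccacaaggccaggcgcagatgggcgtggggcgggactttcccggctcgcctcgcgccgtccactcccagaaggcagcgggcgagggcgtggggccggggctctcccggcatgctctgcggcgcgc
Mki67: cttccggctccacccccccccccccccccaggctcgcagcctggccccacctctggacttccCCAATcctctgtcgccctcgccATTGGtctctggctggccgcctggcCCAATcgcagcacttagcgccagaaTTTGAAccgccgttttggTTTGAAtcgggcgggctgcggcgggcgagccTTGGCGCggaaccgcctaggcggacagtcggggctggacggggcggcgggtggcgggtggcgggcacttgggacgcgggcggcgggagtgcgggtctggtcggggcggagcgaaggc
Mcm5: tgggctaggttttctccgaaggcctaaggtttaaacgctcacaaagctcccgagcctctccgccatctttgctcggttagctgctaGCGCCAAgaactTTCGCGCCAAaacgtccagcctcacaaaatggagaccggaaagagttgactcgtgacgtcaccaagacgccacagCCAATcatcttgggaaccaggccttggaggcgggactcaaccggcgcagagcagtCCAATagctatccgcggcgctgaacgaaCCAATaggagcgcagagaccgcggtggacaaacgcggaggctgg
Kif20b: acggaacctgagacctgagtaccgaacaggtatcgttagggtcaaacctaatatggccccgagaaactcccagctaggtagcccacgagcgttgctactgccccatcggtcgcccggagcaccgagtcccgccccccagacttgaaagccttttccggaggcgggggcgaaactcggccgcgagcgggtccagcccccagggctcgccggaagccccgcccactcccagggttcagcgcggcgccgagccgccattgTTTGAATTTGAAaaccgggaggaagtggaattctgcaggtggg

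The contrast between both groups asked which of these genes differ with the diabetic genotype. Kif23, Mcm5, Top2a and Birc5 were higher in db/db and Kif20b was lower, with fold changes on the log2 scale of 2.04, 1.19, 1.03, 0.81 and -1.12. That is 4 of 20 tested members higher and 1 lower (quasi-likelihood test of edgeR, adjusted by Benjamini-Hochberg over all 12131 tested genes), where 3.91% of all tested genes were higher, 3.49% lower and 7.39% either. The median log2 fold change was 0.25 over the 20 tested members and 0.00 over all tested genes. The share called higher stood above the background, while 15 of the 20 did not pass the test. A low gene can pass the count filter through the group where it is high. Mcm5 and Birc5, with db/m medians of 1.52 and 2.18 CPM, passed it mainly through db/db, which can raise this share. With no filter on low counts, Mcm5 was called (edgeR adjusted p = 0.0418) and Birc5 was not (edgeR adjusted p = 0.120). In whole kidney, more dividing cells and more RNA per dividing cell cannot be told apart.

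**Figure D1:**
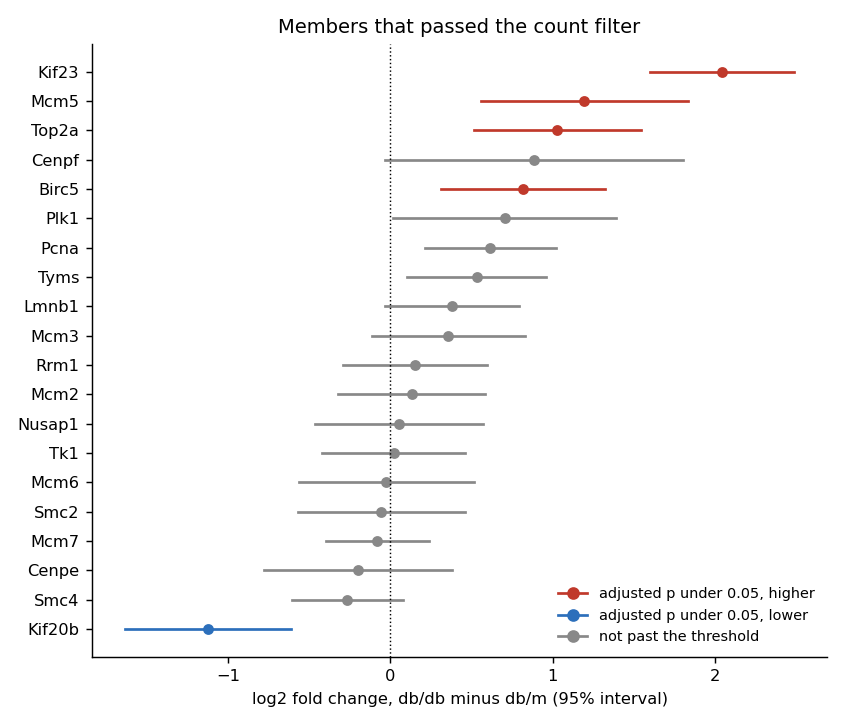
Log2 fold change, db/db minus db/m, with its 95% interval (x axis) for the 20 members that passed the count filter (rows). Kif23 stands farthest to the right at 2.04, Mcm5, Top2a and Birc5 follow among the called genes, and Kif20b is the 1 called gene on the left at -1.12.

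Of the 6 subunits of the MCM helicase, which unwinds DNA at the fork, 5 were tested, and Mcm5 was the 1 that passed. Mcm5 lay between 1.24 and 5.22 CPM in db/db, with a median of 4.14, and between 0.463 and 2.68 CPM in db/m, with a median of 1.52. Of the 9 db/db libraries, 7 were above every db/m library, and db/db replicates 3 and 7 fell within the db/m range. Its mean was 3.80 ± 1.23 CPM in db/db and 1.64 ± 0.811 CPM in db/m (SD; log2 fold change 1.19, SE 0.31; edgeR adjusted p = 0.0186; exact permutation p = 0.00280, two-sided). The other tested subunits had intervals that held 0: Mcm2 at 0.13 (95% interval -0.32 to 0.58), Mcm3 at 0.36 (-0.11 to 0.83), Mcm6 at -0.03 (-0.56 to 0.51) and Mcm7 at -0.08 (-0.39 to 0.24). Mcm7 was the most abundant subunit, at 23.2 ± 6.95 CPM in db/db and 24.6 ± 3.24 CPM in db/m, and it overlaps Cops6 and Ap4m1 on the opposite strand. Mcm4 was too low to test, with 64 counts over db/db and 74 over db/m. Whether Mcm5 differed from its partners was not tested.

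Pcna, the sliding clamp that holds DNA polymerase on its template, lay close to the threshold. It ranged from 4.69 to 11.8 CPM in db/db, with a median of 8.62, and from 3.64 to 7.55 CPM in db/m, with a median of 5.25, so that 6 of 9 db/db libraries exceeded every db/m library. The log2 fold change was 0.61 (SE 0.19; edgeR adjusted p = 0.0576; exact permutation p = 0.00572, two-sided). It passed without db/m replicate 2 (edgeR adjusted p = 0.0471), without db/db replicate 1 (edgeR adjusted p = 0.0168) and with DESeq2 (adjusted p = 0.0419). Those 2 were the only calls among the 17 fits that left out 1 library (edgeR adjusted p up to 0.111). With no filter on low counts it was not called (edgeR adjusted p = 0.120).

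Of the enzymes that make nucleotides, none passed edgeR's test. Thymidylate synthase Tyms, which makes the thymine nucleotide, came nearest, from 9.32 to 17.6 CPM in db/db (median 10.6) and from 3.33 to 12.5 CPM in db/m (median 8.62), a log2 fold change of 0.53 (SE 0.21; edgeR adjusted p = 0.130). The groups overlapped, with 3 db/db libraries above the highest db/m library. Thymidine kinase Tk1, which salvages thymidine, was at 0.02 (95% interval -0.42 to 0.46), and the large ribonucleotide reductase subunit Rrm1 at 0.15 (-0.29 to 0.59). The small subunit Rrm2, which is made in S phase, had 23 counts over db/db and 16 over db/m. Together the 11 replication and nucleotide genes summed to 85.3 ± 7.37 CPM in db/db and 75.4 ± 4.23 CPM in db/m, and 7 of 9 db/db libraries were above the highest db/m library. The largest differences in mean within that sum were those of Tyms (12.2 CPM in db/db and 8.48 CPM in db/m), Pcna (8.42 and 5.50 CPM) and Mcm5 (3.80 and 1.64 CPM). Of the 9 tested genes of this role, 7 had positive and 2 had negative fold changes.

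Transcripts of cyclins and mitotic kinases were scarce in both groups. Cyclin B1 (Ccnb1), which with Cdk1 drives entry into mitosis, had 23 counts over db/db, where every library held some, and 8 over db/m, where 5 of 8 libraries held none. Cdk1 had 61 counts in db/db and 23 in db/m. Cyclin A2 (Ccna2) had 19 in db/db and 8 in db/m, and cyclin B2 (Ccnb2) 33 in db/db and 28 in db/m. These counts rest on a few reads per library, and Ccna2 shares its locus with Exosc9 on the opposite strand. The kinase Aurkb, which corrects chromosome attachment, had 4 counts in db/db and 0 in db/m, and the checkpoint kinase Bub1 had 1 in db/db and 0 in db/m, all within the limit of 3 counts per library. Its relative Bub1b had 23 in db/db and 20 in db/m, and the spindle pole kinase Aurka 33 in db/db and 24 in db/m. The ubiquitin enzyme Ube2c, which helps to destroy cyclins, had 46 in db/db and 31 in db/m.

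Plk1, a kinase that acts throughout mitosis, was the 1 gene of this role to pass the count filter. It lay between 0.621 and 5.57 CPM in db/db (median 3.05) and between 0.958 and 2.55 CPM in db/m (median 2.00). Although 7 db/db libraries exceeded all db/m libraries, db/db replicate 8 had the lowest value of all 17, and the log2 fold change of 0.70 (SE 0.33) did not pass edgeR's test (adjusted p = 0.224). Cdc20, which switches on the cyclin-destroying complex, was below the filter at 1.24 to 5.73 CPM in db/db (median 2.48) and 0.463 to 2.55 CPM in db/m (median 0.968). It had an exact permutation p of 0.0135 (two-sided, unadjusted), and it overlaps the much more abundant Elovl1 on the opposite strand. With no filter on low counts, Cdc20 was not called (edgeR adjusted p = 0.192). Summed, the 11 genes of this role came to 12.1 ± 3.93 CPM in db/db and 6.90 ± 1.46 CPM in db/m. In that sum 8 of 9 db/db libraries were above the highest db/m library at 8.62 CPM, while db/db replicate 8, at 4.76 CPM, was below the lowest. The largest differences in mean within it were those of Cdc20 (2.76 CPM in db/db and 1.25 CPM in db/m), Plk1 (3.12 and 1.87 CPM) and Cdk1 (1.59 and 0.628 CPM).

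Kif23 had the largest change of the tested members. It encodes the kinesin of centralspindlin, the complex that bundles the central spindle and places the cleavage furrow. Its level ran from 10.9 to 31.7 CPM in db/db, with a median of 20.3, and from 2.92 to 7.35 CPM in db/m, with a median of 5.09. The groups did not overlap, which held for 0.734% of all tested genes in this direction and 1.05% in the other, and for no other tested member. The means were 20.5 ± 6.75 CPM in db/db and 4.98 ± 1.22 CPM in db/m (SD), a fold change of 4.12 (log2 2.04, SE 0.21; edgeR adjusted p = 1.61e-06; exact permutation p = 4.11e-05, two-sided, the smallest that 9 against 8 libraries can give). In fits that left out 1 library, the log2 fold change stayed between 1.94 and 2.14.

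The partners of Kif23 in cytokinesis were all far lower. Racgap1, the other component of centralspindlin, lay between 0.929 and 3.43 CPM in db/db (median 2.07) and between 0.231 and 2.35 CPM in db/m (median 1.12). The microtubule bundler Prc1 lay between 0.422 and 2.53 CPM in db/db (median 1.93) and between 0 and 1.46 CPM in db/m (median 0.662). In Prc1, 7 of 9 db/db libraries were above every db/m library, with an exact permutation p of 0.00971, whereas Racgap1 had 0.0647 (both two-sided and unadjusted). Prc1 overlaps Rccd1 on the opposite strand, which was at 2.01 CPM in db/db and 2.46 CPM in db/m. With no filter on low counts, Prc1 (edgeR adjusted p = 0.201) and Racgap1 (edgeR adjusted p = 0.393) were not called. Anillin (Anln), a scaffold of the contractile ring, had 17 counts over db/db and 5 over db/m, and Ect2, which activates RhoA at the furrow, had 23 over db/db and 36 over db/m. None of these 4 passed the count filter, and their levels summed to 4.85 ± 1.61 CPM in db/db and 3.04 ± 1.08 CPM in db/m. The kinesin Kif20a, which acts beside Kif23 at the midzone, had 10 counts in db/db and 16 in db/m. In the annotation, Rplp1, a very abundant ribosomal protein gene, lies on the same strand beyond the 3′ end of Kif23. Rplp1 was at 507 CPM in db/db and 337 CPM in db/m (log2 fold change 0.59, SE 0.17; edgeR adjusted p = 0.0412), and its part in the Kif23 counts was not tested.

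Birc5 (survivin), which docks Aurkb at the centromere, ran from 2.83 to 5.13 CPM in db/db (median 4.02) and from 0.926 to 3.47 CPM in db/m (median 2.18). In all, 7 db/db libraries were above every db/m library. The log2 fold change was 0.81 (SE 0.24), near the threshold at an edgeR adjusted p of 0.0434 (exact permutation p = 0.000740, two-sided). Leaving out db/m replicate 1, 3, 5, 7 or 8 ended the call, as did leaving out db/db replicate 1, 3, 4, 6, 7 or 8 (edgeR adjusted p up to 0.0891), and with no filter on low counts the adjusted p was 0.120. It stayed in the other 6 of 17 such fits.

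Kif20b went the other way. This kinesin acts late in cytokinesis and is also known from neurons. It ran from 2.41 to 10.6 CPM in db/db, with a median of 7.12, and from 9.58 to 30.1 CPM in db/m, with a median of 13.9. The groups overlapped only where db/db replicates 2 and 9 exceeded db/m replicate 8. The means were 7.08 ± 2.58 CPM in db/db and 15.7 ± 6.36 CPM in db/m (SD; log2 fold change -1.12, SE 0.25; edgeR adjusted p = 0.00594; exact permutation p = 0.000247, two-sided). The highest db/m value came from db/m replicate 3, and leaving out 1 library at a time gave -1.22 to -0.93, called in 17 of 17 fits.

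The remaining spindle and centromere genes overlapped between the groups. Cenpf, a kinetochore protein, was at 3.10 ± 2.10 CPM in db/db and 1.70 ± 1.07 CPM in db/m (log2 fold change 0.88, 95% interval -0.03 to 1.80; edgeR adjusted p = 0.255), with db/db replicate 1 highest at 8.04 CPM. The kinetochore motor Cenpe was at -0.20 (-0.78 to 0.38) and the spindle protein Nusap1 at 0.05 (-0.46 to 0.57). Of those below the filter, Tpx2, which activates Aurka, had 67 counts over db/db and 28 over db/m, and the chromosome-bound kinesin Kif22 had 54 in db/db and 30 in db/m. The spindle motor Kif11 had 10 in db/db and 16 in db/m, and the chromokinesin Kif4 had 20 in db/db and 12 in db/m. The centromeric histone Cenpa had 35 in db/db and 50 in db/m, and the tubulin-binding Stmn1 had 35 in db/db and 33 in db/m. The sum over this role depended on Kif23 and Kif20b. It was 46.6 ± 7.68 CPM in db/db and 35.6 ± 6.77 CPM in db/m, a difference of 10.99 CPM, and without Kif23 the difference turned to -4.52 CPM. The sum without Kif23 still held Kif20b, at 7.08 CPM in db/db and 15.7 CPM in db/m. It therefore does not show that the remaining genes of this role were lower.

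Among genes of chromosome structure, Top2a rose. Topoisomerase II alpha untangles sister chromatids, and its level ran from 3.32 to 9.76 CPM in db/db (median 7.82) and from 1.62 to 4.91 CPM in db/m (median 3.08). Here 6 of 9 db/db libraries were above every db/m library. The log2 fold change was 1.03 (SE 0.25; edgeR adjusted p = 0.0119; exact permutation p = 0.00156, two-sided).

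Mki67, the gene of the proliferation marker Ki-67, just missed the count filter. It ran from 0.905 to 6.59 CPM in db/db (median 3.70) and from 0.816 to 2.35 CPM in db/m (median 1.47), with 6 db/db libraries above every db/m library. The exact permutation p was 0.00954 (two-sided, unadjusted). Fitted with all 25107 genes that had any count, of which 1.62% were called higher and 1.66% lower, it had a log2 fold change of 1.25 (SE 0.36; edgeR adjusted p = 0.0494). DESeq2 gave 1.27 (adjusted p = 0.0124).

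The condensin subunits Smc2 and Smc4, which compact mitotic chromosomes, did not pass. Smc4 was the most abundant member, from 30.0 to 79.7 CPM in db/db (median 43.3) and from 44.1 to 66.1 CPM in db/m (median 53.5). Its log2 fold change was -0.26 (95% interval -0.61 to 0.08; edgeR adjusted p = 0.379), with db/db replicate 1 far above the other db/db libraries. Smc2 was at -0.06 (-0.57 to 0.46), and the nuclear lamina gene Lmnb1, which resting cells also use, at 0.38 (-0.03 to 0.79). Hmgb2, a chromatin protein of dividing cells, had 26 counts over db/db and 34 over db/m. The 6 genes summed to 74.1 ± 19.6 CPM in db/db and 76.3 ± 11.1 CPM in db/m.

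**Figure D2:**
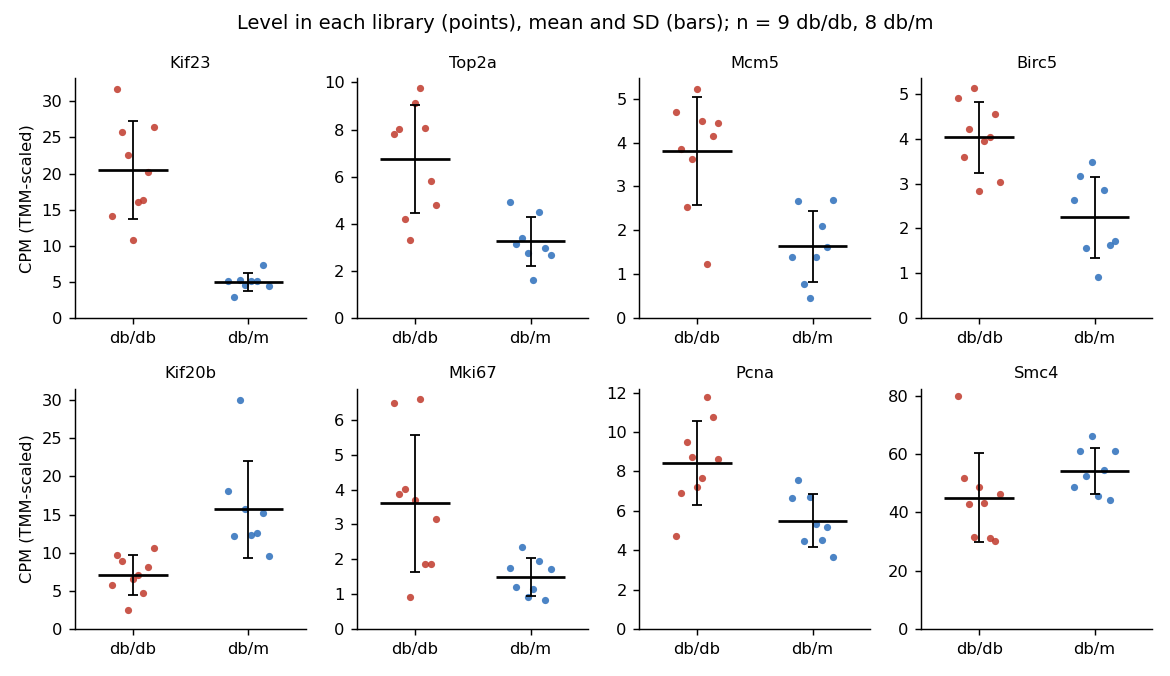
CPM of 8 members in each library (points), with the group mean and SD (bars), db/db on the left (n = 9) and db/m on the right (n = 8). Every db/db library exceeds every db/m library in Kif23, most do so in Top2a, Mcm5, Birc5, Mki67 and Pcna, most db/db libraries lie below the db/m libraries in Kif20b, and the groups overlap in Smc4.

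The 25 members too low to test summed to 26.3 ± 9.13 CPM in db/db and 17.6 ± 4.70 CPM in db/m, with 1038 counts over db/db and 678 over db/m. The range was 17.2 to 43.8 CPM in db/db (median 22.3) and 13.1 to 27.6 CPM in db/m (median 17.3). The db/db libraries with the most were replicates 1 (43.8 CPM) and 6 (38.8 CPM), and 6 of 9 lay within the db/m range. As a sum over chosen genes it was given no test. All 45 members together came to 223 ± 27.9 CPM in db/db and 197 ± 12.7 CPM in db/m, a ratio of 1.13, so the whole set made up a very small part of the RNA in both groups.

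**Figure D3:**
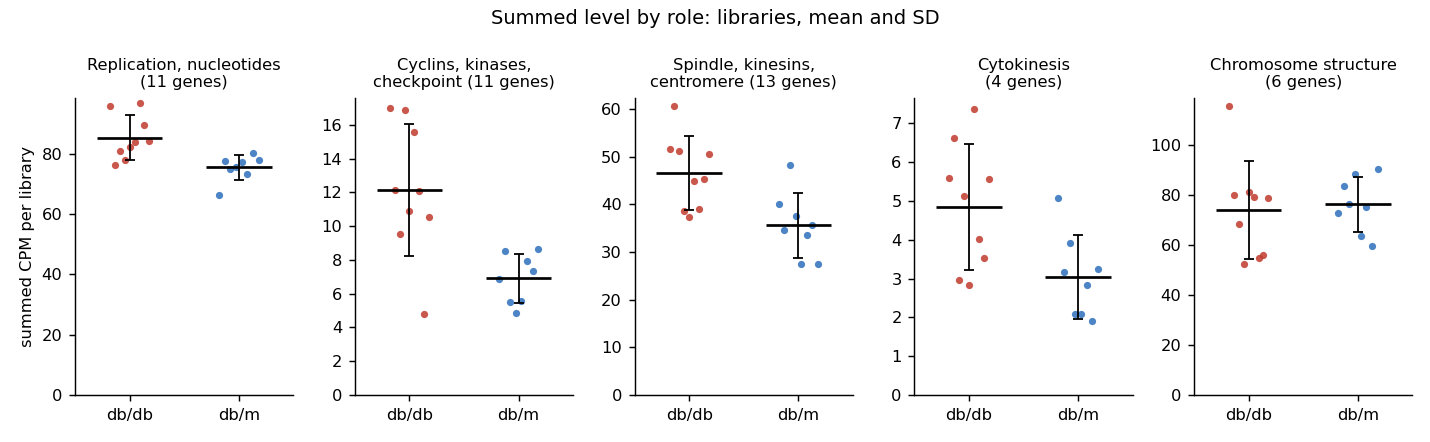
Summed CPM per library over the members of each role (points), with mean and SD (bars), db/db on the left and db/m on the right of each panel. The sum of cyclins, kinases and checkpoint genes lies above the highest db/m library in 8 of 9 db/db libraries, while in the chromosome structure sum db/db replicate 1 stands highest at 116 CPM and the other libraries of both groups lie between 52.2 and 90.4 CPM.

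Libraries did not rank alike over the roles. The db/db replicate 1 library was highest in the chromosome structure sum (116 CPM) and in the cyclin and kinase sum (16.98 CPM), and db/db replicate 2 in the spindle sum (60.7 CPM). The replication sum was highest in db/db replicate 7 (96.9 CPM), whose chromosome structure sum, at 54.8 CPM, was below every db/m library. In db/db replicate 8 the replication sum was 89.5 CPM, above every db/m library, and the cyclin and kinase sum the lowest of all.

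Genes of the same pathways outside the set, 150 in 7 lists, gave 8 higher and 1 lower among 82 tested, against 3.91% and 3.49% of all genes, with a median log2 fold change of 0.03. Of the 8, 4 came from the list of kinetochore, cohesin, condensin and spindle genes, of which 16 were tested. These were Spc25 and Spc24, which form the inner end of the NDC80 complex that holds microtubules, Cenpw, which helps to found the kinetochore, and Cdca8 (borealin), which binds Birc5. Ndc80 and Nuf2, of the same complex and list, were below the filter. Ndc80 had 8 counts over db/db and 11 over db/m, and Nuf2 had 12 over db/db and 3 over db/m. Spc25 was at 53.3 ± 22.8 CPM in db/db and 20.01 ± 2.90 CPM in db/m, with no overlap of the groups (log2 fold change 1.41, SE 0.21; edgeR adjusted p = 9.38e-05). Spc24 was lower in level, at 4.18 ± 1.48 CPM in db/db and 1.75 ± 0.613 CPM in db/m (1.26, SE 0.28; edgeR adjusted p = 0.00734). Spc24, Cenpw and Cdca8, with db/m medians of 1.77, 1.21 and 1.93 CPM, passed the count filter mainly through db/db, which can raise the share called higher. With no filter on low counts Spc24 was still called (edgeR adjusted p = 0.0190). Cenpw (1.21, SE 0.33; edgeR adjusted p = 0.0255) lost its call without db/m replicate 1, 3, 4 or 6 and with no filter on low counts (edgeR adjusted p = 0.0576). Cdca8 (1.01, SE 0.29; edgeR adjusted p = 0.0370) passed the filter in 14 of 17 such fits and was called in 6, and with no filter on low counts it was not called (edgeR adjusted p = 0.0872). Of the fits in which it was tested and not called, 6 left out a db/m library (replicate 1, 2, 4, 6, 7 or 8) and 2 left out a db/db library (replicate 6 or 7).

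Genes that decide on entry into the cycle moved in both directions. Among 13 tested genes of G1 and S entry, 1 rose (7.69%, against 3.91% of all tested genes). It was cyclin D3 (Ccnd3), at 129 ± 23.1 CPM in db/db and 92.7 ± 15.8 CPM in db/m (log2 fold change 0.48, SE 0.12, edgeR adjusted p = 0.0154, and 0.0501 without db/m replicate 4). Of 5 tested inhibitors of cyclin-dependent kinases, Cdkn1a (p21) rose, at 44.4 ± 8.79 CPM in db/db and 13.1 ± 5.42 CPM in db/m (1.75, SE 0.21; edgeR adjusted p = 7.21e-06). Cdkn2c (p18), which holds back the cyclin D kinases, fell to 5.82 ± 1.54 CPM in db/db, against 9.48 ± 1.72 CPM in db/m (-0.69, SE 0.18; edgeR adjusted p = 0.0201, and 0.0534 with no filter on low counts). The transcript of p21, which blocks the cycle, was thus higher in the db/db group, as were those of Kif23, Top2a and Mcm5. Whether they were high in the same libraries was not tested.

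At the replication fork, 1 of 25 tested genes rose (4%), near the 3.91% of all tested genes that were higher. It was the single-strand binding subunit Rpa2, at 36.5 ± 8.00 CPM in db/db and 21.9 ± 4.96 CPM in db/m (log2 fold change 0.73, SE 0.16, edgeR adjusted p = 0.00428). Of 11 tested chromatin and tubulin genes that go with growth, 1 rose (9.09%), the beta tubulin Tubb5 (0.46, SE 0.10, edgeR adjusted p = 0.00712). Among 6 nucleotide and S-phase chromatin genes, 0 were called by edgeR, 0 had an unadjusted p under 0.05, and DESeq2 called 0 of 11. DREAM, MuvB and FOXM1 genes switch the mitotic promoters on and off. Of the 6 that were tested, 0 were called by edgeR, 1 had an unadjusted p under 0.05, and DESeq2 called 0 of 9. The nearest tested genes of these lists were Ung (edgeR adjusted p = 0.375) and the histone binder Rbbp4 (-0.33, SE 0.13, edgeR adjusted p = 0.126). Foxm1 and Mybl2 were below the filter and not among the 6. Foxm1 had 68 counts over db/db and 27 over db/m, and Mybl2 had 35 over db/db and 21 over db/m. With no filter on low counts, Foxm1 (edgeR adjusted p = 0.244) and Mybl2 (edgeR adjusted p = 0.586) were not called.

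**Figure D4:**
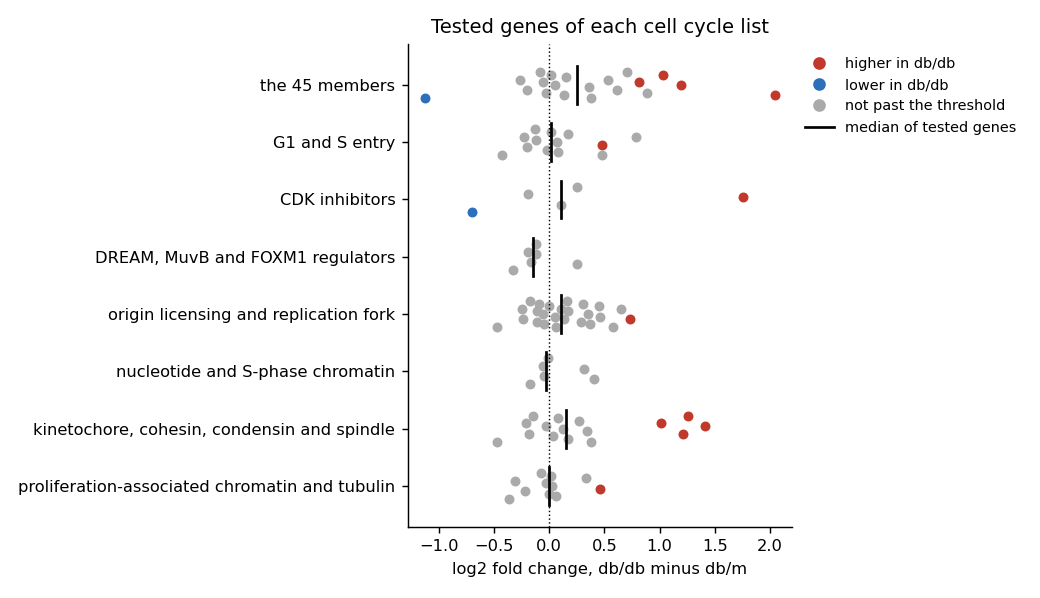
Log2 fold change, db/db minus db/m (x axis), of each tested gene (points) in the 45 members and in 7 further cell cycle lists (rows), with the median of each list (black bar). Genes called higher sit at the right among the members, in the list of kinetochore, cohesin, condensin and spindle genes and in Cdkn1a, while the medians of the lists lie near 0.

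Markers of other cell types were measured in the same libraries. Markers of leukocytes summed to 6.35 to 16.4 CPM in db/db and 14.4 to 26.7 CPM in db/m, with Cd79a at 0 in all libraries. Of 16 leukocyte markers 1 was tested, and Ptprc, the pan-leukocyte gene CD45, fell (log2 fold change -1.49, SE 0.19; edgeR adjusted p = 2.36e-05). Macrophage markers summed to 95.4 to 261 CPM in db/db and 156 to 307 CPM in db/m, plasma cell markers to 22.6 to 74.2 CPM in db/db and 52.0 to 477 CPM in db/m, with Tnfrsf17 at 0 in all libraries. Fold changes were negative in 9 of 9 tested macrophage markers, of which 0 were called, and in 4 of 4 tested plasma cell markers. Of these 4, 2 were called lower, Igha (log2 fold change -3.80) and Igkc (-2.74), where 3.49% of all tested genes were lower. Single immune markers below the filter went either way, with S100a8 at 76 counts over db/db and 48 over db/m, and Cd3e at 6 over db/db and 15 over db/m. The plasma cell marker Jchain, also below the filter, had 30 counts over db/db and 169 over db/m. The part of immune cells in the levels of the members was not tested. Endothelial markers summed to 491 to 637 CPM in db/db and 516 to 650 CPM in db/m. Erythroid markers summed to 1204 to 7855 CPM in db/db and 1940.4 to 3882 CPM in db/m, with positive fold changes in 6 of 6 tested. Of these only Slc4a1 was called (edgeR adjusted p = 0.0405), and it is also 1 of the 11 collecting duct markers. The haemoglobin genes and Alas2 were not called. Podocyte markers summed to 211 to 297 CPM in db/db and 165 to 233 CPM in db/m, with positive fold changes in 7 of 7.

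Among tubule markers, several of the injured, distal and collecting duct lists rose. Of all tested genes, 3.91% were called higher in db/db and 3.49% lower. Markers of injured or dedifferentiated tubule summed to 519 to 831 CPM in db/db and 326 to 466 CPM in db/m, and 4 of 10 tested rose. Distal convoluted and connecting tubule markers summed to 2450.0 to 4038 CPM in db/db and 1534 to 2178 CPM in db/m (6 of 8 rose). Collecting duct markers summed to 825 to 1780 CPM in db/db and 407 to 1022 CPM in db/m (7 of 11 rose, with Slc4a1 among them). Proximal tubule markers summed to 8611 to 14214 CPM in db/db and 24537 to 36885 CPM in db/m, with 1 of 12 higher and 3 lower. That sum rested on the abundant Kap, at 4071 CPM in db/db and 24312 CPM in db/m, and the 12 fold changes split into 6 positive and 6 negative, with a median log2 fold change of -0.01. Thick ascending limb markers summed to 1236 to 2992 CPM in db/db and 1816 to 3713 CPM in db/m, with 1 of 7 higher and 1 lower and a median of 0.07. The part of tubule, podocyte and erythroid cells in the levels of the members was not tested.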

How the data were processed

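Counts per gene were deposited by the authors as raw whole-number counts for 17 kidney libraries. STAR 2.7.3a and HTSeq 2.16.2 are named by the submitters' processing notes, which list the human build GRCh38 although the identifiers are those of mouse Ensembl. Which mouse annotation was counted, with what strand setting and with or without duplicates is not given in the sources used here, so genes that overlap on opposite strands are uncertain, and limits on low counts cover counting error only. Besides Mcm7, Ccna2 and Cdc20, such an overlap with a protein-coding gene holds for Prc1 (Rccd1), Ube2c (Tnnc2) and Tk1 (Afmid). It also holds for Kif20a (Cdc23), Kif4 (Pdzd11) and Nusap1 (Oip5). The extraction protocol in the labels speaks of cultured cells, whereas the tissue field and titles give kidney.

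Symbols came from a table of mouse gene names (55141 of 55487 identifiers), neighbouring genes from GENCODE M21 and promoters from RefSeq. Lines for reads outside genes and ambiguous reads (19.3% and 0.533%) were left out. Libraries were compared with edgeR 4.0.16 (quasi-likelihood F-test, R 4.3.3, no covariate), after filterByExpr with a minimum count of 10 and TMM scaling. P-values were adjusted by Benjamini-Hochberg over 12131 genes, called under 0.05. SE is the fold change divided by the square root of F, and intervals are at 95%. Log2 CPM for exact permutation tests used a prior count of 2. Fits were tested on simulated data. DESeq2 1.42.0, RLE scaling, no filter, a replicate block and leaving out libraries were tried.

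Members and lists were chosen with earlier results of these data known. All 45 members were named, and from each further cell cycle list up to 4 called genes by smallest p; where none was called, the gene with the smallest p. Other genes were named after their values were seen. P-values set the difference between the groups against the spread between animals of a group. Within a group, the most alike pair of libraries had a chi-square per degree of freedom of 3.85, so none was treated as a repeat.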

Additional observations from a re-analysis of the deposited data

Results flagged for a closer look

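In a search of 56 groups of values (the 20 tested members and 8 sums, in each of 2 groups), 9 stood far from the rest of their group, where chance alone gives about 5% of groups. Of these, 4 belong to db/db replicate 1, 2 of them sums that contain the same genes. It had 79.7 CPM of Smc4 against at most 51.6 CPM in the other db/db libraries, and 8.04 CPM of Cenpf against at most 4.57 CPM. Its chromosome structure sum was 116 CPM, and its sum over all members 286 CPM. The db/db replicate 8 library, which also stood apart on the first principal component, had 39.8 CPM of Mcm7, and db/db replicate 7 had 22.6 CPM of Tk1. Among db/m libraries, replicate 3 had 30.1 CPM of Kif20b, replicate 2 had 8.03 CPM of Mcm3, and replicate 8 had 27.6 CPM in the sum of members below the filter.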

How the results depend on the processing

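Replicate numbers did not pair the samples: deviations of same-numbered db/db and db/m libraries correlated at -0.454 to 0.212, and 0 of 8 numbers matched best with themselves. With the replicate block, which dropped db/db replicate 9, 2 members were called higher (Kif23 and Top2a) instead of 4, while Mcm5 had an edgeR adjusted p of 0.0713. All genes called then numbered 194 higher and 231 lower, and other cell cycle genes called lower numbered 0 by edgeR (4 at an unadjusted p under 0.05), as Cdkn2c had an adjusted p of 0.119. With no filter on low counts that last count was also 0 (4 at an unadjusted p under 0.05, and 1 by DESeq2), and without db/db replicate 8, the library that stood apart, it was 2. Leaving out 1 library at a time gave 3 to 5 members called higher, 1 called lower, 5 to 10 other cell cycle genes higher (5 without db/m replicate 4) and 1 to 2 lower (2 without db/db replicate 1, 6 or 8). Without Kif23, an alternative chosen after seeing the data, the difference in the spindle sum, which still held Kif20b, turned to -4.52 CPM. Birc5 also missed the threshold with no filter (edgeR adjusted p = 0.120) and without db/db replicate 8 (0.0562). DESeq2 called 6 members higher, adding Pcna and Mki67, and RLE scaling called the same 4. Mki67 passed the filter in 7 of 17 fits without 1 library and was called in 5. The causes of these changes were not tested. Depth limits the 25 members below the filter, where a difference may have gone undetected.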
